A study of Arabidopsis thaliana with 48 samples.

Results

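The stomatal lineage genes described here are 10 genes of Arabidopsis thaliana that build the stomata, the pores of the plant surface. They were picked as a named family, by their identifiers and with earlier results of these data known, and all 10 were found among the 23069 genes of the deposited count table. All 10 had enough counts to be tested, as had 19747 genes in all. Every sample came from inflorescences of 1 line in the Col-0 background, pAP1:AP1-GR ap1 cal, so the ap1 and cal mutations and the AP1-GR fusion driven by the AP1 promoter were present on every day. Without dexamethasone, a steroid, the line keeps making inflorescence meristems that pile up like a cauliflower, and its addition (2 µM, applied by pipette, first at 8 h after lights on and then daily at 4 h) lets the AP1-GR protein enter the nucleus and start flowers. The labels give 21 °C with 16 h of light and 8 h of dark for every sample. The 6 groups are day 0 and days 1 to 5 after induction, with 4 biological replicates each. Day therefore stands for AP1 activity, number of dexamethasone treatments and age together, and these cannot be told apart. The labels give neither the hour of sampling nor whether day 0 had a mock treatment, so time of day and the treatment solution may also differ between day 0 and the later days in every comparison with day 0, and their part was not tested. A time course without dexamethasone is not analysed here.

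Stomata arise in the epidermis through a short series of divisions. The bHLH proteins SPCH, MUTE and FAMA act one after the other: SPCH starts the lineage, MUTE ends the self-renewing divisions and commits the cell, and FAMA sets the final guard cell fate. Each works as a dimer with SCRM (also ICE1) or its close relative SCRM2. Secreted peptides of the EPF family space the stomata through ERECTA-family receptors and the receptor-like protein TMM. EPF2 limits entry into the lineage, EPF1 acts later on spacing, and STOMAGEN, made by inner tissue, competes with them and promotes stomata. SDD1 is a subtilisin-type protease that lowers stomatal density, and BASL marks 1 side of a dividing lineage cell and makes the division unequal. Most of this is known from leaves and cotyledons.

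Summed over 2 sequencing batches, the total counts per sample, in units of 1e6, were 26.56 to 27.98. Levels are given as CPM, counts per 1e6 counts of the TMM-adjusted library, as mean ± SD with n = 4 per day. Each change is on the log2 scale, given with a standard error (SE) and tested with edgeR's quasi-likelihood F-test and called at a Benjamini-Hochberg adjusted p under 0.05 over all tested genes. In all, 4 libraries stood apart in markers of the tapetum, a cell layer of the anther. The 10 markers summed to 72.4 CPM in day 1 replicate 3 and 76.9 in day 2 replicate 4. They read 126 in day 3 replicate 4 and 79.7 in day 5 replicate 4, against 24.7 to 46.3 CPM in the other 20 samples. Of 8 tested markers 5 rose from day 0 to day 3, where 14.6% of all tested genes rose. From day 0 to day 5, 4 rose, where 24.3% of all tested genes did. Replicates 1 to 3 of day 3 summed to 35.2, 35.1 and 37.2 CPM, against 24.7 to 35.2 CPM at day 0. Counts of members called are given below also without these 4 libraries. With library totals in place of TMM the share of rises among the called genes moved from 41.8% to 64.9% (day 1 against day 0), 78.2% to 66.7% (day 2 against day 1), 63.7% to 44.2% (day 5 against day 4), 53.8% to 36.8% (day 5 against day 1) and 62.5% to 43.9% (day 5 against day 3). Since the tissue was taken whole, a change in the share of cells that express a gene and one in its RNA per cell cannot be told apart below.

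All 10 genes changed over the 6 days, and each had its lowest daily mean at day 2 or day 3. The depth of that low differed, from 22.2% of the day 0 mean for MUTE to 83.1% for SPCH and 96.0% for SCRM, and no fall of SPCH or SCRM was called in any of the comparisons between days. Of all tested genes 48.9% changed over the 6 days, so the number of calls alone is not particular to these genes. The smallest adjusted p was that of SPCH (4.29e-08) and the largest that of EPF1 (0.0021). The lowest daily mean was at day 2 for 6 members (SPCH, SCRM, TMM, EPF2, STOMAGEN and BASL) and at day 3 for the other 4 (MUTE, FAMA, EPF1 and SDD1). Of all tested genes, 17.5% had their lowest mean on 1 of these 2 days. The exact day of the low is not settled, since no member was called from day 1 to day 2 or from day 2 to day 3. Uncalled steps beside the low could turn their sign. In the batch 1 runs SCRM changed by 0.025 (log2) from day 1 to day 2 and MUTE by -0.087 from day 3 to day 4. Without replicate 1 of every day EPF1 changed by -0.15 from day 3 to day 4. The highest mean was at day 5 for SPCH, SCRM, TMM, EPF2 and BASL, and at day 0 for MUTE, FAMA, EPF1, SDD1 and STOMAGEN. All 10 were also called over days 1 to 5 alone, without day 0, from SPCH (adjusted p = 4.18e-08) to EPF1 (adjusted p = 0.0154), and without the 4 libraries high in tapetum markers. In the batch 1 runs alone 9 were called, EPF1 having too few counts to be tested, and in the batch 2 runs alone all 10 were called.

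**Figure D1:**
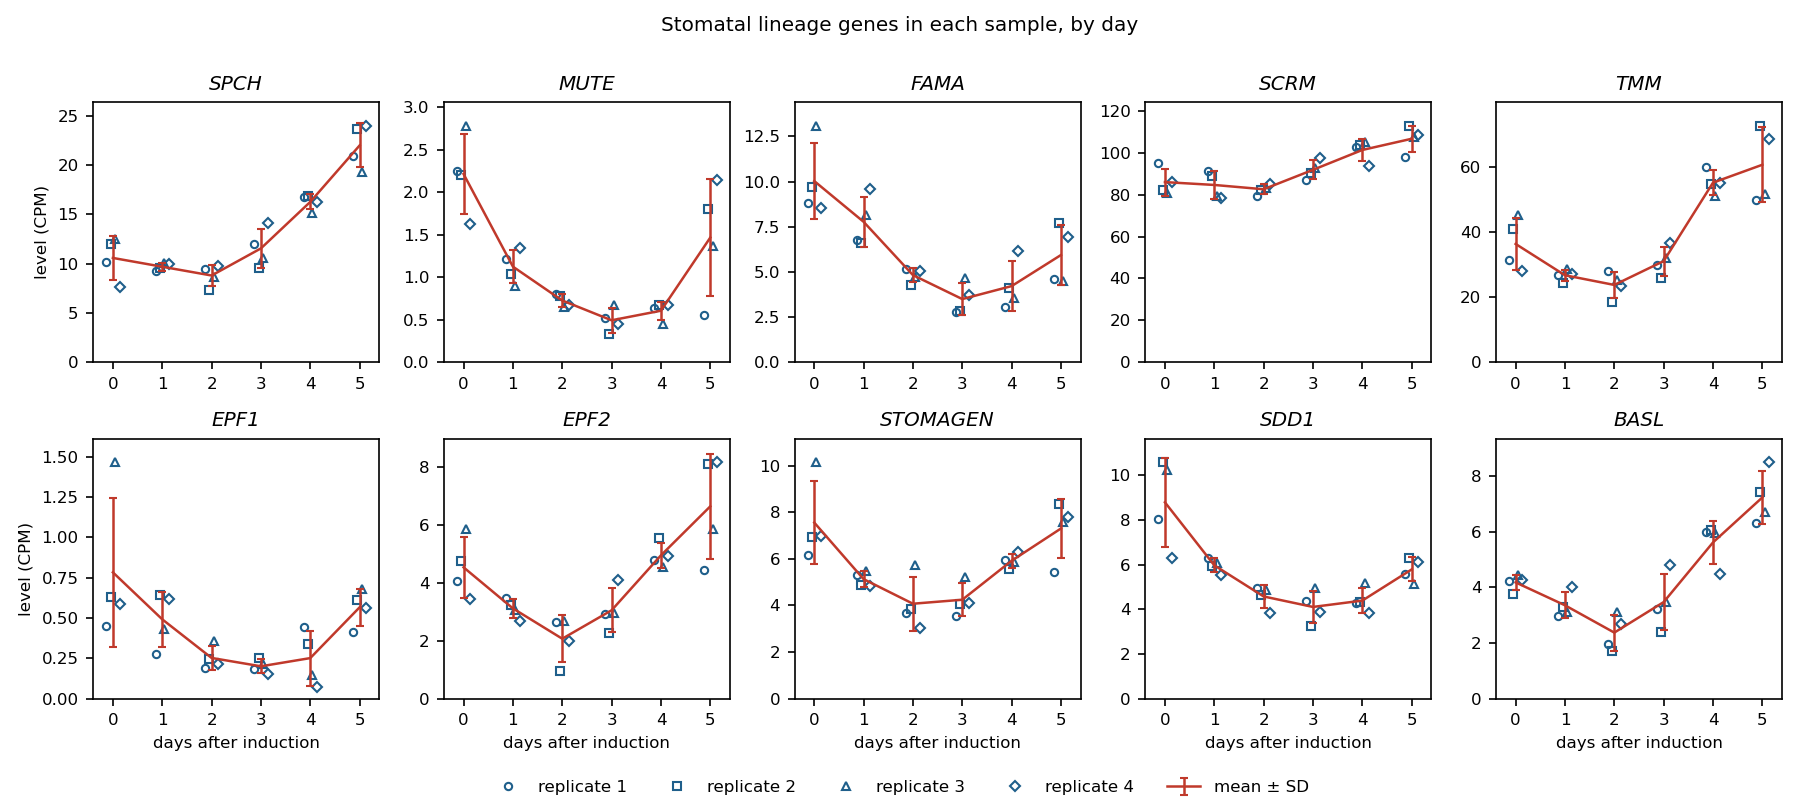
Level of each of the 10 genes in CPM (vertical axes, each from 0) against days after induction, with 1 marker per replicate and the mean ± SD of 4 samples as a line. The lowest mean lies at day 2 or day 3 in every panel, and SPCH ends at 22.0 CPM, above its 10.6 CPM at day 0, where FAMA ends at 5.93 CPM, below its 10.03 CPM at day 0.

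SPCH (AT5G53210, chromosome 5, 21586219 to 21589255 on the minus strand of TAIR10.1) ended at about double its starting level. Its 4 samples read 10.1, 12, 12.5 and 7.63 CPM at day 0 and 20.96, 23.7, 19.3 and 23.99 CPM at day 5. The lowest sample of day 5 was above the highest of day 0. Between them the daily means were 9.68 ± 0.39, 8.79 ± 1.1, 11.5 ± 2.0 and 16.3 ± 0.76 CPM at days 1 to 4. From day 0 to day 5 SPCH rose by 1.06 on the log2 scale (SE 0.13, adjusted p = 6.33e-07).

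MUTE (AT3G06120, chromosome 3, 1846442 to 1848259, plus strand) took the deepest dip of the 3 sequential bHLH genes. At day 0 its samples read 2.24, 2.20, 2.78 and 1.62 CPM, and at day 3 they read 0.516, 0.328, 0.673 and 0.450 CPM, all below every day 0 sample. The day 3 mean was 22.2% of the day 0 mean. At day 5 the samples read 0.559, 1.80, 1.36 and 2.14 CPM, so replicate 1 lay within the range of day 3 and the other 3 lay above it. MUTE was counted with few reads, 9 to 72 per sample (median 21.5), which limits its precision.

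FAMA (AT3G24140, chromosome 3, 8715118 to 8718211, minus strand; FMA in the reference) lay at 8.79, 9.68, 13.1 and 8.55 CPM before induction. It read 2.80, 2.80, 4.64 and 3.71 CPM on day 3, and on day 5 it read 4.59, 7.72, 4.496 and 6.92 CPM. Neither the day 3 nor the day 5 samples overlapped those of day 0. At day 5 its mean was 59.2% of that of day 0, and it had fallen by 0.76 on the log2 scale (SE 0.21, adjusted p = 0.00552). Without replicate 3 of every day the change was -0.49 (adjusted p = 0.107).

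SCRM (AT3G26744, chromosome 3, 9832667 to 9835279, minus strand), the common partner, varied least, its highest daily mean being 1.29 times its lowest. Its daily means stayed between 82.7 ± 2.4 CPM (day 2) and 107 ± 6.3 CPM (day 5), and day 0 stood at 86.1 ± 6.5 CPM. The samples read 95.2, 82.4, 80.7 and 86.2 CPM at day 0 and 98.0, 113, 108 and 109 CPM at day 5, with no overlap. SCRM rose by 0.31 from day 0 to day 5 (log2, SE 0.06, adjusted p = 0.000283).

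Because SPCH on the one hand and MUTE and FAMA on the other moved apart, their ratio within a sample changed. Scaled by the length of the merged exons (CPM per kb), MUTE stood at 0.512, 0.425, 0.513 and 0.492 of SPCH in the 4 samples of day 0. At day 4 it stood at 0.0872, 0.0926, 0.0679 and 0.0947 of SPCH. At day 5 the ratio was 0.0618 in replicate 1 and 0.175, 0.163 and 0.207 in replicates 2 to 4, still below every sample of day 0. FAMA over SPCH had mean ratios of 0.881 ± 0.14, 0.238 ± 0.077 and 0.245 ± 0.046 at days 0, 4 and 5, and the day 0 and day 5 samples did not overlap. EPF1 over EPF2, the later over the earlier acting peptide, had a geometric mean of 0.151 at day 0 and 0.0827 at day 5, with overlapping samples. These ratios were chosen after the levels were seen and are given with no test. Since the tissue was taken whole, they do not show which cells held each RNA, in the stomatal lineage or outside it.

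**Figure D2:**
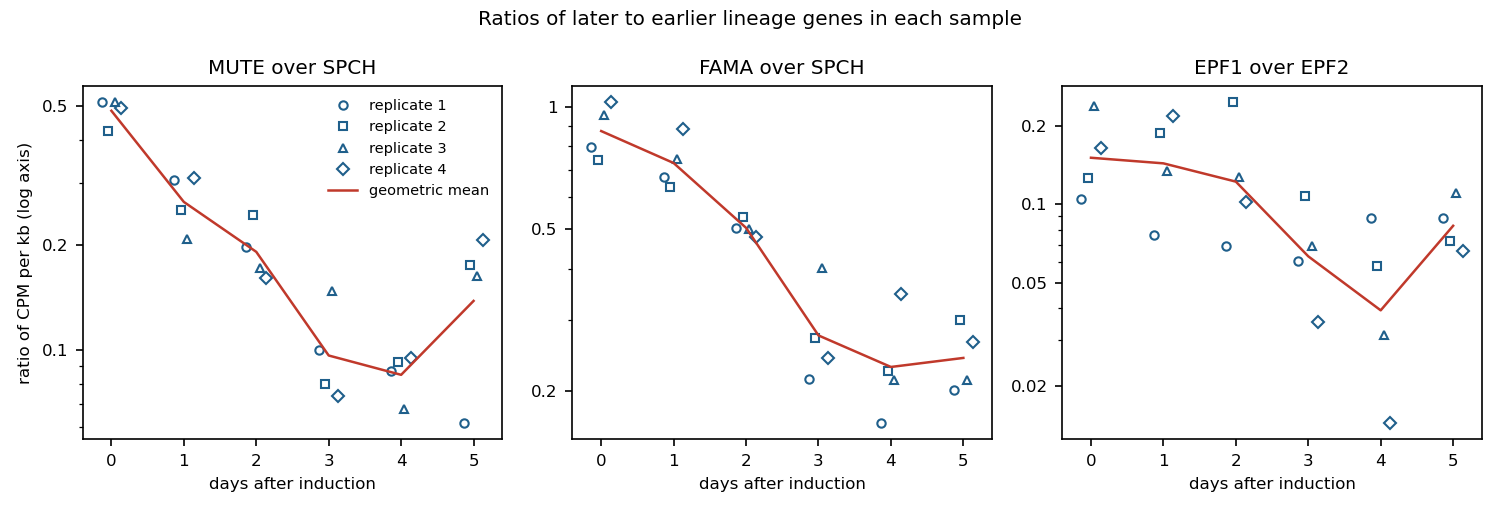
Ratio of CPM per kb (log axes) of MUTE to SPCH, FAMA to SPCH and EPF1 to EPF2 in each sample, against days after induction, with the geometric mean of 4 samples as a line. MUTE over SPCH lies at 0.425 to 0.513 on day 0 and at 0.0618 to 0.207 on day 5, and FAMA over SPCH at 0.741 to 1.03 and 0.201 to 0.299.

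The bases just before the start of 4 genes are shown because SPCH, MUTE and FAMA act in sequence and moved apart, and because EPF2 holds the most E-boxes of the 10. An E-box, CANNTG, reads the same on both strands and is the kind of site that bHLH proteins bind. Capitals mark each one in the 250 bases upstream of the annotated gene start, printed 5′ to 3′ on the strand of the gene and cut from the RefSeq genome TAIR10.1. SPCH comes from chr5:21589256-21589505 (minus strand), MUTE from chr3:1846192-1846441 (plus), FAMA from chr3:8718212-8718461 (minus) and EPF2 from chr1:12472618-12472867 (plus).
SPCH: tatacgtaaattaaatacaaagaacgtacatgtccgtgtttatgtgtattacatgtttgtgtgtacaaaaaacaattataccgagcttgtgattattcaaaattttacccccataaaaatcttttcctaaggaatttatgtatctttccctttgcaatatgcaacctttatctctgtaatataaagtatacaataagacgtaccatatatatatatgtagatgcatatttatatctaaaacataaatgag
MUTE: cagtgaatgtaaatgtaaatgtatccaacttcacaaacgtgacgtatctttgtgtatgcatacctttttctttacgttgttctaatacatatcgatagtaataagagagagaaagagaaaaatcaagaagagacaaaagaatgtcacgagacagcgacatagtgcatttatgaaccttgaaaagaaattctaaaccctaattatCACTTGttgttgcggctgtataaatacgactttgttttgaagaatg
FAMA: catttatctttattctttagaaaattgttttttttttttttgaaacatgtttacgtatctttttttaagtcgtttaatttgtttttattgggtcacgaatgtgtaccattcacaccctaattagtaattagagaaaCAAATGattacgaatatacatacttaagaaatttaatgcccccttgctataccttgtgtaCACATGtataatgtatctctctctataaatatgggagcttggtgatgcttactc
EPF2: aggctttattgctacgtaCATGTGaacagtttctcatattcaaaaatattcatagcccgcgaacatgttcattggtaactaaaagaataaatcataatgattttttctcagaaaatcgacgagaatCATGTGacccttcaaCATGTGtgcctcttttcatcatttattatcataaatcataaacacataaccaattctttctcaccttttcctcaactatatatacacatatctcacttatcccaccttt
EPF2 held 3 E-boxes, all CATGTG, starting 232, 124 and 109 bases before the gene start. FAMA and EPF1 held 2 each, MUTE, SDD1 and BASL held 1 each, and SPCH, SCRM, TMM and STOMAGEN held none in these windows. With 6 of 10 the members were near the background, since 55.3% of the 27443 upstream windows of the genome hold at least 1 E-box. The G-box CACGTG, a special case of the E-box, is in 6.49% of all windows and in none of the 10. A CArG box, the site type of MADS proteins such as AP1, is in 2.52% of all windows and in none of the 10. A match is only a match of letters.

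TMM (AT1G80080, chromosome 1, 30127819 to 30129649, minus strand), the receptor-like protein, moved with SPCH across the 24 samples (Pearson r = 0.94). Its samples read 31.4, 40.9, 45.1 and 27.9 CPM at day 0, 28.1, 18.4, 25.1 and 23.4 CPM at day 2, and 60.1, 54.8, 51.0 and 55.0 CPM at day 4. All samples of day 4 were above all of day 0, and day 2 reached up into day 0 only with replicate 1. At day 5 the samples split, with 72.7 and 68.6 CPM in replicates 2 and 4 against 49.8 and 51.8 CPM in replicates 1 and 3. TMM rose by 0.74 from day 0 to day 5 (log2, SE 0.15, adjusted p = 0.000262).

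Of the peptides, EPF2 (AT1G34245, chromosome 1, 12472868 to 12473974, plus strand) went from 4.08, 4.76, 5.87 and 3.43 CPM at day 0 through 2.65, 0.949, 2.69 and 1.98 CPM at day 2 to 4.44, 8.10, 5.86 and 8.16 CPM at day 5. Days 0 and 5 overlapped, and their difference of 0.55 (log2, SE 0.24) had an adjusted p of 0.0617. EPF1 (AT2G20875, chromosome 2, 8982863 to 8983814, minus strand) was the lowest member, with 2 to 38 counts per sample. It read 0.449, 0.629, 1.47 and 0.590 CPM at day 0, 0.184, 0.255, 0.213 and 0.150 CPM at day 3 and 0.410, 0.612, 0.680 and 0.564 CPM at day 5. Replicate 3 of day 0 stood well above its group. Day 3 lay below days 0 and 5, which overlapped each other.

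STOMAGEN (AT4G12970, chromosome 4, 7585869 to 7587099, minus strand), the promoting peptide, read 6.17, 6.92, 10.2 and 7.002 CPM at day 0, 3.54, 4.08, 5.24 and 4.13 CPM at day 3 and 5.45, 8.37, 7.59 and 7.82 CPM at day 5. The log2 difference of day 5 and day 0 was -0.05 (SE 0.17, adjusted p = 0.835). SDD1 (AT1G04110, chromosome 1, 1061297 to 1063809, minus strand), the protease, read 8.04, 10.6, 10.2 and 6.30 CPM at day 0, 4.35, 3.24, 4.96 and 3.86 CPM at day 3 and 5.56, 6.31, 5.14 and 6.13 CPM at day 5. It had fallen by 0.60 at day 5 (log2, SE 0.15, adjusted p = 0.00174), with 1 sample of day 5 just inside the range of day 0. BASL (AT5G60880, chromosome 5, 24488289 to 24489836, minus strand), the polarity protein, read 4.23, 3.78, 4.44 and 4.27 CPM at day 0, 1.96, 1.72, 3.12 and 2.69 CPM at day 2 and 6.30, 7.41, 6.72 and 8.50 CPM at day 5. The 3 groups did not overlap, and BASL rose by 0.79 from day 0 to day 5 (log2, SE 0.18, adjusted p = 0.00104).

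Compared per length, SCRM had the highest mean of the members on all 6 days. At day 0 it stood at 34.2 ± 2.6 CPM per kb, followed by TMM at 19.9 ± 4.4 CPM per kb. STOMAGEN (7.68 ± 1.8), EPF2 (5.47 ± 1.3), SPCH (4.86 ± 1.0), FAMA (4.23 ± 0.88), SDD1 (3.497 ± 0.80) and BASL (3.29 ± 0.22 CPM per kb) came next, each overlapping its neighbour in the order. MUTE (2.35 ± 0.50) and EPF1 (0.905 ± 0.53 CPM per kb) were lowest, with no overlap between BASL and MUTE or between MUTE and EPF1. At day 5 the order was SCRM (42.4 ± 2.5), TMM (33.2 ± 6.3), SPCH (10.1 ± 1.0), EPF2 (8.02 ± 2.2), STOMAGEN (7.42 ± 1.3), BASL (5.70 ± 0.76), FAMA (2.5004 ± 0.69), SDD1 (2.30 ± 0.21), MUTE (1.56 ± 0.73) and EPF1 (0.654 ± 0.13 CPM per kb). The gaps without overlap then lay between TMM and SPCH and between BASL and FAMA. SPCH had moved from rank 5 to rank 3 in this order, and FAMA from rank 6 to rank 7.

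In the first day after induction MUTE, STOMAGEN and SDD1 fell, 3 of 10 members, where 10.1% of all tested genes changed and 5.85% fell. MUTE fell by 0.97 on the log2 scale (SE 0.28, adjusted p = 0.0271), STOMAGEN by 0.56 (SE 0.17, adjusted p = 0.0432) and SDD1 by 0.56 (SE 0.15, adjusted p = 0.017). In all 3 the day 1 samples lay below all day 0 samples, which held for 9.19% of all tested genes. The members' median change was -0.49, against -0.0018 over all tested genes. TMM, at -0.44 (SE 0.15), had an adjusted p of 0.061. It was called as a fall with DESeq2 (adjusted p = 0.0342) and with the compared days alone (0.0482). So it was without day 0 replicate 1 (0.0447) or 4 (0.0215), day 2 replicate 2 (0.0443) or day 5 replicate 1 (0.0435). The 3 calls of MUTE, STOMAGEN and SDD1 depended on the runs and libraries used. Of these 3, MUTE alone was called in the batch 1 runs. In the batch 2 runs STOMAGEN and SDD1 were called and MUTE was not (-0.77, adjusted p = 0.113). Without the 4 libraries high in tapetum markers only SDD1 was. The MUTE call ended without day 0 replicate 2 (adjusted p = 0.0632) or 3 (0.0821) and without day 1 replicate 1 (0.0552), 2 (0.0778) or 3 (0.0638). That of SDD1 ended without day 0 replicate 2 (adjusted p = 0.0908) or 3 (0.0627) or day 1 replicate 4 (0.0518). That of STOMAGEN ended without day 0 replicate 2 (adjusted p = 0.0714), 3 (0.167) or 4 (0.0514), day 1 replicate 1 (0.0781), 2 (0.104) or 4 (0.0979), or day 4 replicate 2 (0.051), and with library totals (0.0673).

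From day 1 to day 2 no member was called, against 1.9% of all genes, although FAMA (-0.69, SE 0.22, adjusted p = 0.119), MUTE (-0.63, SE 0.30, adjusted p = 0.383) and SDD1 (-0.38, SE 0.15, adjusted p = 0.244) had samples that did not overlap, which held downward for 4.01% of all tested genes. From day 2 to day 3 no member was called either, against 0.871% of all genes. Without the 4 libraries high in tapetum markers no member was called in either of these steps. Taken from day 0 to day 3, a comparison added after the levels were seen, 5 members fell and none rose, where 14.5% of all tested genes fell and 14.6% rose (29.1% called). They were MUTE (-2.16, SE 0.30, adjusted p = 9.8e-06), EPF1 (-1.94, SE 0.43, adjusted p = 0.00149), FAMA (-1.52, SE 0.22, adjusted p = 1.48e-05), SDD1 (-1.10, SE 0.15, adjusted p = 6.94e-06) and STOMAGEN (-0.83, SE 0.18, adjusted p = 0.00094). In each of the 5 every sample of day 3 was below every sample of day 0, which held for 13.8% of all tested genes. The other 5 were not called, with log2 changes of 0.13 for SPCH, 0.09 for SCRM, -0.23 for TMM, -0.27 for BASL and -0.57 for EPF2 (SE 0.06 to 0.25). The same number fell without the 4 libraries high in tapetum markers, 4 fell in the batch 1 runs, where EPF1 was not tested, and 5 in the batch 2 runs.

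From day 3 to day 4 TMM rose by 0.83 (log2, SE 0.15, adjusted p = 0.0036), the 1 member called where 1.45% of all genes were called and 0.962% rose. SPCH, at 0.50 (SE 0.13, adjusted p = 0.0542), and BASL, at 0.69 (SE 0.18, adjusted p = 0.0627), came close, and both were called without the 4 libraries high in tapetum markers (adjusted p = 0.0272 and 0.0165). Without replicate 1 or replicate 2 of every day the TMM rise had an adjusted p of 0.0522 or 0.0617. From day 4 to day 5 SPCH rose by 0.44 (SE 0.13, adjusted p = 0.0267) and MUTE by 1.27 (SE 0.30, adjusted p = 0.00874), with 12.2% of all genes called and 7.75% rising. For SPCH the days did not overlap, and for MUTE day 5 replicate 1 lay within the range of day 4. Without the 4 libraries high in tapetum markers neither was called (adjusted p = 0.0709 for SPCH and 0.054 for MUTE), nor in the batch 1 runs alone. The MUTE call also ended without replicate 2 (adjusted p = 0.0809), 3 (0.0614) or 4 (0.0666) of every day. The SPCH call also ended without day 4 replicate 1 (adjusted p = 0.0682) or 3 (0.0784) and without day 5 replicate 2 (0.0693) or 4 (0.0767).

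Over the 2 days from day 3 to day 5 all 10 members rose, where 19.1% of all tested genes were called and 12% rose. This comparison too was added after the levels were seen, and it shares the day 3 samples with the one from day 0 to day 3. The members' median change was 0.95 on the log2 scale, against -0.01 over all tested genes. MUTE rose most (1.56, SE 0.31, adjusted p = 0.00085), then EPF1 (1.47, SE 0.44, adjusted p = 0.0218), EPF2 (1.12, SE 0.24, adjusted p = 0.00206) and BASL (1.06, SE 0.18, adjusted p = 0.00024). TMM rose by 0.97 (SE 0.15, adjusted p = 6.65e-05), SPCH by 0.93 (SE 0.13, adjusted p = 1.88e-05), STOMAGEN by 0.78 (SE 0.18, adjusted p = 0.00285) and FAMA by 0.76 (SE 0.22, adjusted p = 0.018). SDD1 rose by 0.49 (SE 0.15, adjusted p = 0.0236) and SCRM, the flattest, by 0.22 (SE 0.06, adjusted p = 0.0167). Every sample of day 5 was above every sample of day 3 for 8 members, which held for 10.1% of all tested genes. MUTE and FAMA were the exceptions.

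The weaker of these rises depended on single libraries. Without the 4 libraries high in tapetum markers 7 of 10 were called, with FAMA (adjusted p = 0.0952), EPF1 (0.107) and SDD1 (0.121) lost. In the batch 1 runs 8 rose and in the batch 2 runs 9. FAMA was lost without day 3 replicate 1 (adjusted p = 0.0696) or 2 (0.0639) and without day 5 replicate 2 (0.0767) or 4 (0.0579). EPF1 was lost without day 3 replicate 1 (adjusted p = 0.0594) or 4 (0.0539) or day 5 replicate 3 (0.0554). SDD1 was lost without day 3 replicate 2 (adjusted p = 0.0959) or 4 (0.0533) or day 5 replicate 2 (0.0665) or 4 (0.0599). SCRM was lost without day 3 replicate 1 (adjusted p = 0.0674) or day 5 replicate 2 (0.0604), and with library totals (0.101). STOMAGEN was lost without replicate 2 of every day (adjusted p = 0.0655), and MUTE, EPF2, BASL, TMM and SPCH were called under every alternative run.

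**Figure D3:**
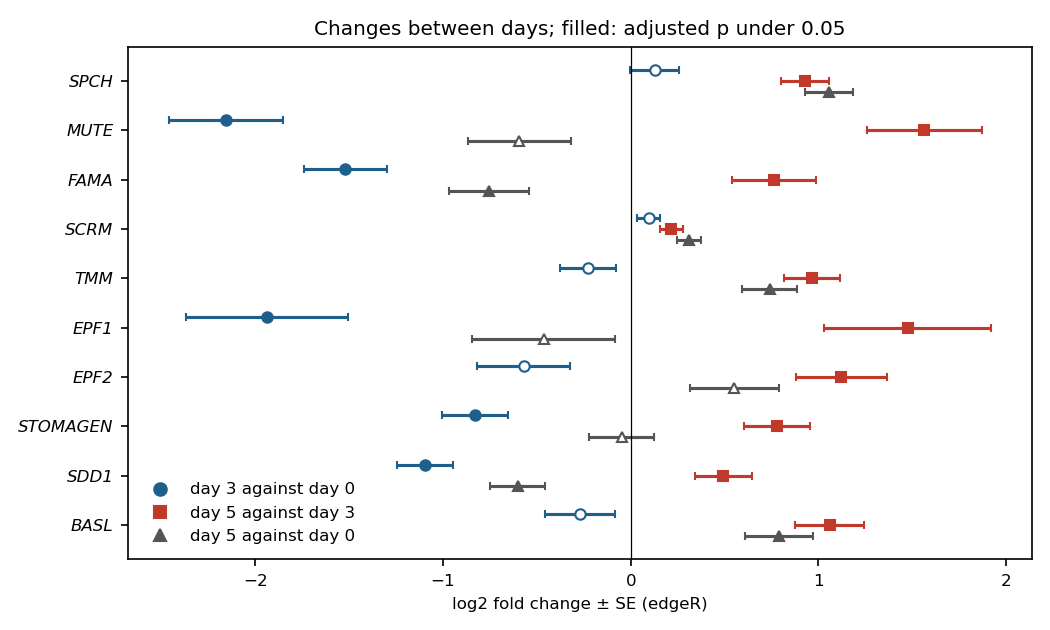
Log2 fold change ± SE of each gene (rows) from day 0 to day 3, from day 3 to day 5 and from day 0 to day 5, with filled markers where the adjusted p was under 0.05. The 10 changes from day 3 to day 5 are all above 0, and those from day 0 to day 3 reach down to -2.16 for MUTE.

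Over the whole span from day 0 to day 5 the members ended on both sides of their start: 4 rose (SPCH, SCRM, TMM and BASL), 2 fell (FAMA and SDD1) and 4 were not called. Of all tested genes 47.2% were called, 24.3% rising and 22.9% falling, so 6 of 10 is near the background. No share over all tested genes is given for samples of days 0 and 5 that do not overlap. Such gaps in SPCH, FAMA, SCRM and BASL are therefore not read as particular to these genes. MUTE, at -0.59 (log2, SE 0.27), had an adjusted p of 0.0793, and it was called without day 5 replicate 4 (-0.84, adjusted p = 0.0206) or day 0 replicate 4 (-0.72, adjusted p = 0.0486). MUTE was also called in the batch 1 runs alone (-0.95, adjusted p = 0.0192) and without replicate 4 of every day (-0.96, adjusted p = 0.0227). EPF1 stood at -0.46 (SE 0.38, adjusted p = 0.334). EPF2 was called, as a rise, without day 5 replicate 1 (0.70, adjusted p = 0.0166), day 0 replicate 3 (0.70, adjusted p = 0.0321) or day 2 replicate 2 (0.55, adjusted p = 0.0248), and with DESeq2 (0.56, adjusted p = 0.0409). The batch 2 runs alone gave this call too (0.61, adjusted p = 0.0491). Without the 4 libraries high in tapetum markers 4 rose and 3 fell, MUTE being the added fall. Against day 1, which already had a day of AP1 activity, 6 members rose by day 5 (SPCH, SCRM, TMM, EPF2, STOMAGEN and BASL) and none fell, where 40.7% of all tested genes were called and 21.9% rose. SPCH and TMM each rose by 1.18 in that comparison (SE 0.13 and 0.15, adjusted p = 1.79e-07 and 1.38e-06), BASL by 1.11 (SE 0.18, adjusted p = 4.52e-05), EPF2 by 1.09 (SE 0.24, adjusted p = 0.00103) and SCRM by 0.33 (SE 0.06, adjusted p = 0.000174). STOMAGEN, at 0.51 (SE 0.17, adjusted p = 0.0229), lost its call without day 1 replicate 2 (0.0511) or 4 (0.053) and without day 5 replicate 2 (0.0728) or 4 (0.0553), each value an adjusted p. It was also lost in the batch 1 runs and without the 4 libraries high in tapetum markers (adjusted p = 0.177 and 0.0622), where 5 rose.

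Across the 24 samples the members fell into correlated sets. Among SPCH, TMM, EPF2, BASL and SCRM the 10 pairwise Pearson correlations of log2 CPM ran from 0.66 to 0.94 (median 0.84), with SPCH and TMM at 0.94 and TMM and EPF2 at 0.90. Among MUTE, FAMA, EPF1 and SDD1 the 6 pairs ran from 0.63 to 0.87 (median 0.79), with MUTE and FAMA at 0.87. Between these sets the 20 pairs ran from -0.33 to 0.43 (median 0.12). STOMAGEN lay between them, with 0.77 to EPF2 and 0.68 to MUTE. The sets were formed after the values were seen, and the points share day, library and depth.

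The genes with a symbol and at least 2 CPM whose log2 levels followed each member most closely over the 24 samples differed between these sets. NGA3, a NGATHA transcription factor of flower and leaf development, had r = 0.98 with SPCH and 0.96 with TMM, and went from 3.49 to 10.8 CPM between days 0 and 5. SPCH was next followed by MLP328 (r = 0.96) and by SHN1, a regulator of cutin and wax (r = 0.96), which went from 0.869 to 39.1 CPM. For TMM the others were scpl35 (r = 0.97) and ROPGAP3 (r = 0.96). EPF2 was followed by the CIN-type factors TCP4 (r = 0.94) and TCP3 (r = 0.89) and by E13L3 (r = 0.88), SCRM by TCP2 (r = 0.92), MSL5 (r = 0.91) and CRK42 (r = 0.89), and BASL by BGAL8 (r = 0.92), the epidermal factor MYB16 (r = 0.91) and ASG5 (r = 0.89). FAMA was followed by HIPP20 (r = 0.96), HPL1 (r = 0.96) and TGG1 (r = 0.96), a myrosinase of guard cells and of the myrosin cells along the veins. MUTE was followed by CEST and CP31B (each r = 0.90) and by HPL1 (r = 0.90), and SDD1 by iqd21 (r = 0.95), PSBO2, a subunit of photosystem II, and PRPL11 (each r = 0.92). STOMAGEN was followed by SOL1 (r = 0.90), CYP94D2 (r = 0.87) and SIG4 (r = 0.86). EPF1 had the loosest followers, iqd21 (r = 0.76), GNC (r = 0.74) and FP3 (r = 0.73).

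Of 35 other genes of the stomatal pathway, 30 were tested and 19 of them changed over the 6 days, where 48.9% of all tested genes did. From day 0 to day 5, 10 rose and 7 fell, against 24.3% and 22.9% of all tested genes, with a median change of 0.13 against -0.01 over all tested genes. From day 3 to day 5, 3 of the 30 rose and 6 fell. Of all tested genes 19.1% were called, with 12% rising and fewer than 12% falling. The 3 that rose were SCRM2, the partner closely related to SCRM, POLAR, which localises with BASL, and HDG2, an epidermal homeodomain factor that promotes stomata. SCRM2 started at 34.7 ± 6.0 CPM, reached 20.14 ± 3.0 on day 3 (-0.78, SE 0.12, adjusted p = 4.19e-05) and stood at 37.7 ± 5.0 on day 5 (0.90, SE 0.12, adjusted p = 1.86e-05). SCRM itself was not called from day 0 to day 3 (0.09), and the difference between the genes was not tested. POLAR had means of 12.7 ± 1.2, 9.41 ± 1.3 and 18.1 ± 2.5 CPM at days 0, 2 and 5, and rose from day 0 to day 5 by 0.52 (log2, SE 0.12, adjusted p = 0.00144). HDG2 rose from 56.6 ± 0.86 to 70.9 ± 4.0 CPM (0.33, SE 0.07, adjusted p = 0.000898).

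Among the remaining transcription factors MYB88, which with FLP stops extra divisions of the guard mother cell, stood at means of 6.17 ± 0.94 CPM before induction, 15.5 ± 1.4 on day 3 and 13.9 ± 0.94 on day 5 (1.17 over the span, SE 0.10, adjusted p = 5.69e-09). From day 0 to day 3 MYB88 rose by 1.33 (SE 0.10, adjusted p = 2.54e-09), where FAMA changed by -1.52 and MUTE by -2.16. FLP, the more abundant of the pair, had means of 78.8 ± 6.8, 85.4 ± 6.2 and 90.3 ± 15 CPM at days 0, 3 and 5. It was not called from day 0 to day 3 or to day 5. Of the 5 core factors and partners 1 rose and 1 fell from day 0 to day 3, where 14.6% and 14.5% of all tested genes did. From day 0 to day 5, 2 rose, where 24.3% of all tested genes did. The polarity partner BRXL2 rose from 34.7 ± 2.9 to 42.5 ± 1.6 CPM (0.29, SE 0.06, adjusted p = 0.000428).

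Of 7 receptors and co-receptors 3 rose and none fell from day 0 to day 3, where 14.6% of all tested genes rose and 14.5% fell. From day 3 to day 5, 3 fell and none rose, where 19.1% of all tested genes were called, 12% rose and fewer than 12% fell. ERL1 had means of 121 ± 7.1, 212 ± 17 and 121 ± 13 CPM at days 0, 2 and 5, with a rise from day 0 to day 3 of 0.62 (log2, SE 0.10, adjusted p = 3.41e-05) and a fall from day 3 to day 5 of the same size (-0.62, SE 0.10, adjusted p = 7.18e-05). ERL2 fell from 402 ± 33 CPM at day 0 to 308 ± 22 at day 5 (-0.38, SE 0.07, adjusted p = 0.000131). The co-receptor SERK1 rose by 0.27 (SE 0.07, adjusted p = 0.00413). SERK4 was called as a rise (0.77, SE 0.25, adjusted p = 0.013), but its day 5 samples ran from 37.5 to 119 CPM. These receptors also act in stem and flower growth, outside the stomatal lineage.

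Of 6 tested relatives of the EPF peptides 4 fell and 1 rose from day 0 to day 5, where 22.9% of all tested genes fell and 24.3% rose. AT4G37810, annotated only as an EPIDERMAL PATTERNING FACTOR-like protein, fell from 37.4 ± 1.8 to 18.9 ± 3.8 CPM (-0.98, SE 0.11, adjusted p = 3.57e-07), and AT5G10310, with the same annotation, fell from 16.1 ± 0.98 to 9.32 ± 1.4 CPM (-0.79, SE 0.09, adjusted p = 1.94e-07). EPFL6, known as CHALLAH, fell by 0.92 (SE 0.12, adjusted p = 2.78e-06) and EPFL4 by 0.65 (SE 0.09, adjusted p = 5.21e-06). EPFL5 rose from 0.805 ± 0.20 to 2.33 ± 0.18 CPM (1.53, SE 0.18, adjusted p = 4.99e-07). In the MAP kinase cascade, which carries the peptide signal to SPCH, MKK5 (0.38, SE 0.07) and MKK9 (1.23, SE 0.24) rose, each at an adjusted p of 0.000168. The day 5 samples of MKK9 were spread from 17.3 to 44.1 CPM, against 7.18 to 15.5 CPM at day 0. The other 4 tested, YDA, MKK4, MPK3 and MPK6, were not called. With 2 of 6 rising, the cascade was near the 24.3% of all tested genes that rose. Of 3 tested cell cycle genes used in the lineage CDKB1;1 fell by 0.26 (SE 0.09, adjusted p = 0.0223) and CYCA2;3 rose by 0.17 (SE 0.06, adjusted p = 0.0259), where 47.2% of all tested genes were called.

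Of 12 markers of finished guard cells 6 fell and 2 rose from day 0 to day 5, where 22.9% of all tested genes fell and 24.3% rose. From day 3 to day 5 OST1 rose and the other 11 were not called, which is near the 12% of all tested genes that rose. MYB60, a guard cell transcription factor, fell from 1.71 ± 0.61 to 0.424 ± 0.19 CPM (-2.0, SE 0.36, adjusted p = 8.04e-05), and AT1G22690 fell from 3.01 ± 0.40 to 0.489 ± 0.21 CPM (-2.61, SE 0.45, adjusted p = 5.61e-05). The other falls were those of ALMT12 (-1.86), TGG1 (-1.12), KAT1 (-1.09) and GORK (-0.79), ion channels apart from the myrosinase TGG1. The rises were those of SCAP1, a factor of guard cell maturation, from 4.14 ± 0.56 to 14.0 ± 2.9 CPM (1.76, SE 0.16, adjusted p = 9.45e-09), and OST1, an abscisic acid signalling kinase found well beyond guard cells (0.81, SE 0.13, adjusted p = 2.63e-05). The 12 markers summed to 1592 to 2176 CPM per sample at day 0, 539 to 998 at day 3 and 677 to 1180 at day 5, nearly all of it TGG1, and none was at 0 in the mean of a day.

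**Figure D4:**
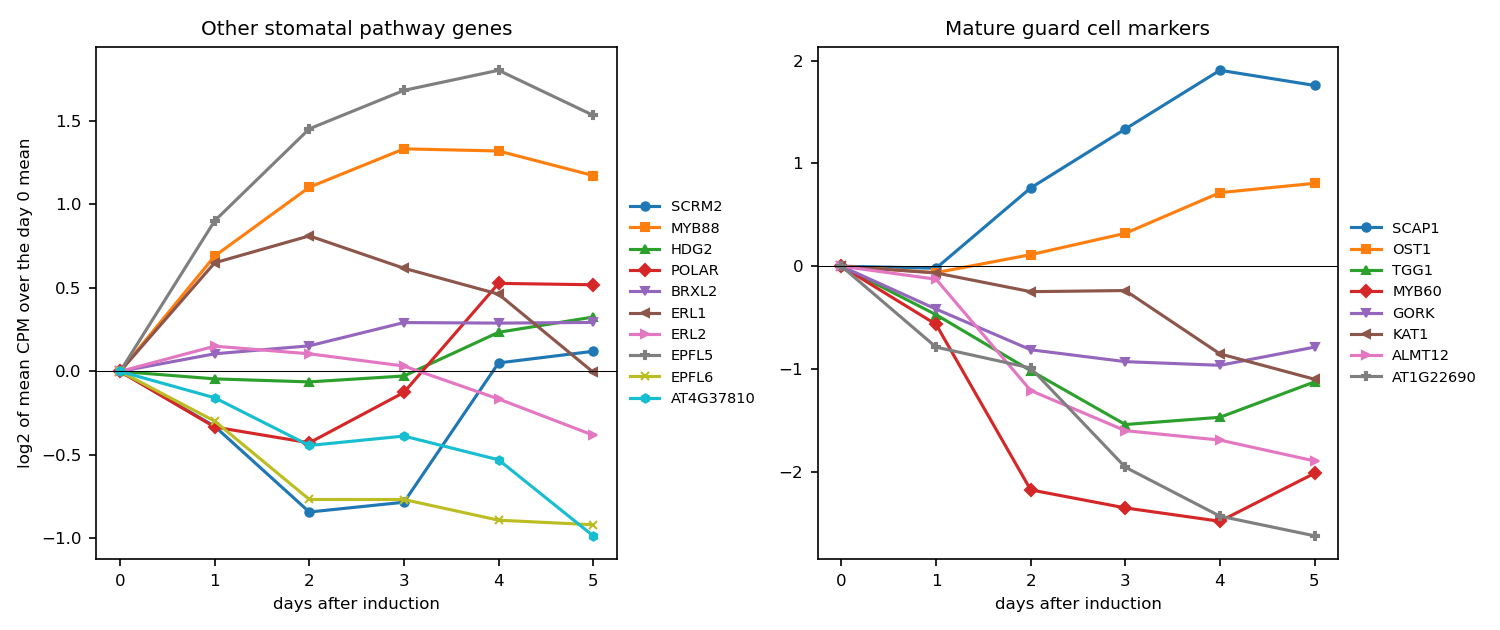
Log2 of the mean CPM of each day over the mean of day 0 (vertical axes, n = 4 per day) against days after induction, for 10 of the other stomatal pathway genes (left) and the 8 mature guard cell markers called from day 0 to day 5 (right). SCRM2 and POLAR dip and then increase, ERL1 is highest at day 2, and of the 8 on the right SCAP1 and OST1 end above 0.

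Other tissue markers moved over the same days, and their part in the members' changes was not tested. Of 8 epidermis markers 7 rose from day 0 to day 5 and 6 from day 3 to day 5, where 24.3% and 12% of all tested genes rose. Their median change was 0.63 over the whole span. Their sum was 2079 to 2272 CPM per sample at day 0, 2796 to 3512 at day 3 and 3516 to 3940 at day 5. FDH, a cuticle enzyme, rose by 1.05 (SE 0.08, adjusted p = 7.49e-10) and PDF1 by 0.83 (SE 0.08, adjusted p = 1.38e-08). Of 12 photosynthesis markers 10 fell from day 0 to day 3, where 14.5% of all tested genes fell. None of the 12 was called from day 3 to day 5, where 19.1% of all tested genes were. Their sum was 11461 to 15627 CPM at day 0, 6500 to 9371 at day 3 and 6567 to 9297 at day 5. Of 6 mitosis markers 1 rose from day 0 to day 3, where 14.6% of all tested genes rose. From day 3 to day 5, 3 mitosis markers fell, where 19.1% of all tested genes were called in either direction and fewer than 12% fell. The trichome list, the other specialised epidermal cell, gave 2 rises and 2 falls of 7 tested from day 0 to day 5. That is near the 24.3% of all tested genes that rose and the 22.9% that fell. TRY was up by 3.29 (SE 0.17, adjusted p = 1.4e-12) and GL2 down (-1.39, SE 0.12, adjusted p = 2.7e-09).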

How the data were processed

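PolyA RNA from 4 biological replicates on each of 6 days was sequenced in 2 batches, per the labels. The submitters' processing notes name FastQC, Trim Galore, Salmon 0.12.0, DESeq2 and the TAIR10 build, and the sources used here do not say which step each did or how strand was handled. The authors deposited estimated counts per gene, whole numbers with 1 column per sequencing run. The proteome is not analysed here.

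Both runs of a sample were added together, since their chi-square over its degrees of freedom was 1.05 to 1.23 in 24 samples, and 3.62 to 62.4 between replicates of a day. After filterByExpr by day (minimum count 10, minimum total 15), edgeR (version 4.0.16, R 4.3.3) was fitted with TMM scaling to all 24 samples and tested by its quasi-likelihood F-test, day being a factor (18 residual degrees of freedom). Adjusted p-values are Benjamini-Hochberg values over 19747 genes. SE is the size of the log2 fold change divided by the square root of F. Correlations use log2 CPM with a prior count of 2. Lengths, positions and 250-base windows come from RefSeq TAIR10.1, to which 22915 genes of the table matched, and no other annotated gene overlaps a member. Where nothing states separate plants, p-values measure the spread between the samples.

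The members and lists were chosen with earlier results of these data known. Named are the 10 members, up to 3 genes per list with the smallest adjusted p from day 0 to day 5 or over the 6 days, and the 3 best correlated genes per member. EPFL4, FLP, ALMT12, KAT1, GORK, TGG1 and the uncalled kinases were named after their values were seen. The comparisons of day 3 with days 0 and 5, the ratios and the settings without day 0 or without the libraries high in tapetum markers were added after the levels were seen. Other alternatives were DESeq2 1.42.0, its kind of size factors, library totals, no filter, a replicate block, single batches, single replicates or libraries left out, and the compared days alone.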

Additional observations from a re-analysis of the deposited data

Results flagged for a closer look

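Of the 60 groups of 4 samples (10 genes on 6 days), 1 held a sample far from the others by the gap between neighbours relative to the range. BASL read 4.48 CPM in day 4 replicate 4, against 5.94 to 6.07 CPM in the other 3 samples of that day, and the gap was 0.918 of the range. Chance gives such a gap in about 5% of groups.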

How the results depend on the processing

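All 10 members stayed called over the 6 days under every alternative in which they could be tested, and the falls of MUTE, FAMA, EPF1, SDD1 and STOMAGEN from day 0 to day 3 did so too. No called change of a member turned its direction. The numbers of genes called depended on the setting for the daily steps. From day 1 to day 2 it was 240 in the batch 1 runs, 595 with the compared days alone, 213 without the 4 libraries high in tapetum markers and 589 with DESeq2, against 376. From day 2 to day 3 these were 90, 21, 42 and 331, against 172. From day 3 to day 4 they were 164 in the batch 1 runs, 147 with the compared days alone and 483 with DESeq2, against 286, and from day 4 to day 5 they were 1392 in the batch 1 runs, 752 with the compared days alone and 1586 without the 4 libraries, against 2403. From day 3 to day 5 the compared days alone gave 2390, against 3774. Of the members, 1 fell from day 0 to day 1 in the batch 1 runs and 1 without the 4 libraries, and FAMA, 1 member, fell from day 1 to day 2 in the batch 1 runs and with the compared days alone. From day 3 to day 4, 2 rose with library totals and with the batch 2 runs, and 3 with DESeq2 and without the 4 libraries. From day 4 to day 5, 0 rose in the batch 1 runs and without the 4 libraries, and 1 with the compared days alone. The causes were not tested. The single batches, the compared days alone and the fits without the 4 libraries also used fewer samples or counts, while DESeq2 and library totals used all.

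Leaving out a replicate number or 1 library gave 6336 to 10203 genes over the 6 days, 337 to 2518 from day 0 to 1, 82 to 629 from 1 to 2, 5 to 252 from 2 to 3, 36 to 436 from 3 to 4, 864 to 2821 from 4 to 5, 7324 to 9618 from 0 to 5, 5978 to 8358 from 1 to 5, 3901 to 6354 from 0 to 3 and 2183 to 4064 from 3 to 5. Members that fell numbered 0 to 4 from day 0 to 1, 5 to 6 from 0 to 3 and 1 to 3 from 0 to 5. Those that rose numbered 0 to 1 from day 0 to 3, 0 to 3 from 3 to 4, 0 to 3 from 4 to 5, 4 to 5 from 0 to 5, 5 to 7 from 1 to 5 and 5 to 10 from 3 to 5. The replicate number as a block gave 9470 genes over the 6 days and 2 members, TMM and BASL, rising from day 3 to day 4, and it changed no other call of a member. Samples of the same number had correlated deviations of -0.31 to 0.60 (median 0.046), and 9 of 24 samples correlated best with their own number, so the numbers are not read as pairs.

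Changes that were not called could turn their sign. SPCH from day 0 to 3, at 0.13, had a range of -0.11 to 0.28 with samples left out, and MUTE from day 3 to 4, at 0.29, had -0.087 in the batch 1 runs. SCRM from day 0 to 1, at -0.02, had 0.043 with library totals, 0.014 in the batch 2 runs, 0.0058 without the 4 libraries and a range of -0.069 to 0.029 with samples left out, and SCRM from day 1 to 2, at -0.04, had 0.025 in the batch 1 runs and a range of -0.085 to 0.026 with samples left out. EPF1 from day 2 to 3, at -0.33, had 0.054 in the batch 2 runs, and EPF1 from day 3 to 4, at 0.32, had a range of -0.15 to 0.62 with samples left out. EPF1 from day 0 to 5, at -0.46, had a range of -0.66 to 0.027 with samples left out, and STOMAGEN from day 2 to 3, at 0.06, had -0.044 in the batch 1 runs, -0.043 without the 4 libraries and a range of -0.062 to 0.27 with samples left out. STOMAGEN from day 0 to 5, at -0.05, had a range of -0.16 to 0.12 with samples left out, and SDD1 from day 1 to 5, at -0.05, had 0.047 in the batch 2 runs and a range of -0.11 to 0.016 with samples left out. All are log2 changes. Depth limits MUTE and EPF1 most, with medians of 21.5 and 10.5 counts per sample.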
